A study of Mus musculus with 6 samples.

Results

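The *Zic* genes encode zinc finger transcription factors. Of the 38553 genes in the expression table of this RNA-Seq study, the 4 genes named *Zic1*, *Zic2*, *Zic4* and *Zic5* were taken by their names. The members were chosen by their FPKM, the expression level, in these same control and mutant samples, so the differences of these 4 genes between the groups are given as a description, with no test. Microdissected craniofacial tissue of E12.5 mouse embryos was profiled in 3 controls, labelled Rbfox2 flox/flox, and in 3 *Rbfox2* mutants, labelled Pax3Cre/+:Rbfox2 flox/flox. The labels call the samples of each genotype independent biological replicates and number them 1 to 3. Both groups carry floxed *Rbfox2* alleles. Only the mutants carry Cre, which is a knock-in at the *Pax3* gene, so that in mutants 1 *Pax3* allele is replaced, and any effect of that allele cannot be told apart from an effect of the *Rbfox2* deletion. *Pax3* is active in the dorsal neural tube and its neural crest derivatives and also in paraxial mesoderm, so recombination is not limited to the crest, and tissue outside these lineages keeps *Rbfox2*. The mice were kept on a mixed genetic background.

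*Zic* proteins are relatives of the Gli and Glis factors. During development they are produced at the border of the neural plate, in the dorsal neural tube and its roof, in the forebrain and its coverings, in the dorsal somites and in parts of the head mesenchyme, and they are known for roles in closing the neural tube, in inducing the neural crest and in keeping neural progenitors dividing. *Rbfox2* is an RNA-binding splicing regulator that recognises the sequence UGCAUG.

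*Zic1*, a regulator of the neural crest and of the cerebellum, and *Zic4*, which is lost together with *Zic1* in deletions that cause cerebellar malformation, share a locus (GRCm38, GENCODE annotation). *Zic1* (ENSMUSG00000032368) lies at chr9:91358058-91365810 on the minus strand and *Zic4* (ENSMUSG00000036972) at chr9:91362413-91389348 on the plus strand. The gene spans overlap by 3398 bp, of which 60 bp are exonic in both genes, 1.05% of the exonic bases of *Zic1* and 0.581% of those of *Zic4*. Whether reads were assigned to genes by strand is not given in the sources used here, so reads from these shared bases could have been given to either gene. *Zic2*, a forebrain gene known from holoprosencephaly, and *Zic5*, which acts in neural tube closure and the neural crest, are also neighbours. *Zic5* (ENSMUSG00000041703) lies at chr14:122456795-122465677 on the minus strand and *Zic2* (ENSMUSG00000061524) at chr14:122475435-122479852 on the plus strand, 9757 bp apart and pointing away from each other.

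The 250 bases before the RefSeq start (GRCm38.p6) were read for *Zic1*, *Zic4* and *Zic5*, 3 of the 4 members matched in the promoter table. They are printed for *Zic1* (chr9:91365769-91366018, minus strand) and *Zic4* (chr9:91368722-91368971, plus strand), which vary alike across samples but differ in these bases. GC boxes (GGGCGG, either strand) and CCAAT boxes (CCAAT, either strand) are in capitals. The *Zic4* window lies within the GENCODE span of *Zic4*, which begins at 91362413, and outside that of *Zic1*, which ends at 91365810. The bases before the first GENCODE base of *Zic4*, in the part that overlaps *Zic1*, were not read. The TATA box TATAAA was searched on both strands as well.
Zic1: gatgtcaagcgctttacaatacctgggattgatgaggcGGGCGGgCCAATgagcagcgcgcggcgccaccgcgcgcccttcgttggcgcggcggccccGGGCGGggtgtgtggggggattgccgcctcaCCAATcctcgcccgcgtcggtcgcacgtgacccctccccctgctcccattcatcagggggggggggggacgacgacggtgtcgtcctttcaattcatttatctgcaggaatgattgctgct
Zic4: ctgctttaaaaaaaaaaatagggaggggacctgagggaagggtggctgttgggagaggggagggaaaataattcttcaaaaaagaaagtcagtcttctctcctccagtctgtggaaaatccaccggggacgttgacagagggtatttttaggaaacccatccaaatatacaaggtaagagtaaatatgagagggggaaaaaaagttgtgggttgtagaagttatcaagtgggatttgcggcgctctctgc
The *Zic1* window had a GC content of 66%, 27 CpG dinucleotides, 2 GC boxes and 2 CCAAT boxes. The *Zic4* window had a GC content of 44.4% and 4 CpG, and that of *Zic5* (chr14:122465659-122465908, minus strand) 62.4% and 11 CpG, with none of the 3 motifs in either. Among 32851 promoters of the same length, 32.7% held a GC box, 33.8% a CCAAT box and 12.4% a TATA box, the median GC content was 52.4% with 6 CpG, and 91.4% had fewer CpG than *Zic1*.

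Since Rbfox2 recognises UGCAUG, the sense strand of the longest coding transcript of each member (GENCODE) was searched for TGCATG. The transcript of *Zic1* held 3 matches, and those of *Zic2*, *Zic4* and *Zic5* 1 each. The *Zic1* matches were in the 5' UTR at chr9:91365686-91365691 and in the 3' UTR at chr9:91360004-91360009 and chr9:91359549-91359554. The *Zic4* match was in the 3' UTR at chr9:91388684-91388689 and the *Zic5* match in the 3' UTR at chr14:122457278-122457283. These UTR matches are shown in windows of 30 bases, with the motif in capitals.
Zic1 5' UTR: aagacaatattgTGCATGatttgcgccttt
Zic1 3' UTR, first: tcaggatgccgaTGCATGcttttccaggcc
Zic1 3' UTR, second: cttgttgtcgctTGCATGatcgccccatta
Zic4 3' UTR: gtggggaaaaaaTGCATGcacgtgcctcct
Zic5 3' UTR: atattagtacagTGCATGgtgctgttacgt
The motif is common in transcripts of this length. Of the 3045 transcripts within 20% of the length of the *Zic1* transcript (5606 bases), 77.2% held at least 1 match, with a mean of 1.6 matches. The corresponding shares were 48% for *Zic2*, 65% for *Zic4* and 72.6% for *Zic5*, and 51.6% of all 21901 transcripts held the motif. Introns were not searched.

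The single *Zic2* match was in coding sequence at chr14:122478615-122478620, and the other members share much of this stretch. The best ungapped match to its 30-base window was taken from each transcript, and in every member it lay in the coding part, within 1 exon. The 6 bases at the motif are in capitals.
Zic2: ggaagaagcacaTGCATGtccacacctcag
Zic1: gcaagaagcacaTGCACGtgcacacgagcg
Zic5: gaaagaaacactCCCATGtccacaccagcg
Zic4: gcaagaaacattCGCACGtgcacacgagcg
*Zic1* had 23 of the 30 bases of *Zic2*, with 5 of the 6 motif bases and the substitution T17C, counted from 1 at the 5' end of the window. *Zic5* had 22 of 30, with T13C and G14C in the motif, and *Zic4* 19 of 30, with T13C and T17C. A match or its lack describes only these letters.

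Expression values are FPKM, fragments per kilobase of gene scaled by all mapped fragments, and log2 differences are on log2(FPKM + 1), which understates differences of low genes. The deleted gene was checked first. *Rbfox2* was at 58.4, 65.0 and 61.3 FPKM in controls 1, 2 and 3 and at 38.1, 36.3 and 34.3 in mutants 1, 2 and 3, a log2 fold change of -0.75 (SE 0.079). The groups did not overlap, though the adjusted p of limma over 10061 genes tested was 0.138. *Pax3* was at 8.83, 11.9 and 11.1 in controls and 8.62, 7.59 and 8.36 in mutants (log2 fold change -0.33, SE 0.12, adjusted p of limma 0.99999). Control 1 and mutant 1 stood apart from the other 4 samples in the whole table, at -19.1 and -17.0 on the first principal component (54.7% of the variance) against 7.55 to 11.0. The mean of 4 Y-linked genes was 14.4 FPKM in mutant 1 and 13.9 in mutant 2 and at most 0.0541 elsewhere. By these genes males were found only among the mutants, so sex was not balanced between the groups, and its part was not tested. All 15 facial mesenchyme markers, such as *Prrx1* and *Twist1*, passed the expression filter, with summed levels of 743 to 776 FPKM in controls and 659 to 816 in mutants. At an adjusted p of 0.05 limma called 0 of 10061 genes (0%), while 167 (1.66%) had an unadjusted p under 0.05, with 71 (0.706%) higher and 96 (0.954%) lower in mutants.

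*Zic1* was the most highly expressed of the 4 members. Its FPKM was 53.4, 21.8 and 23.0 in controls 1, 2 and 3 and 41.9, 35.0 and 29.5 in mutants 1, 2 and 3. Control 1 was the highest of the 6 samples and the other 2 controls were the lowest. The groups overlapped, with all 3 mutants between the controls. The means were 32.8 ± 17.9 in controls and 35.5 ± 6.24 in mutants (SD, n = 3), and the log2 fold change was 0.22 (SE 0.33). Control 1 had 2.38 times the mean of controls 2 and 3. Between samples of the same number, *Zic1* was lower in the mutant in replicate 1 (log2 difference -0.34) and higher by 0.66 and 0.34 in replicates 2 and 3. Over replicates 2 and 3 alone the mutants had 1.44 times the control level (log2 difference 0.50, SE 0.094). The size of the difference depended on single libraries: without control 1 it was 0.63, and without control 2 it was -0.0011. In bulk tissue, more expressing cells and more RNA per cell cannot be told apart.

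**Figure D1:**
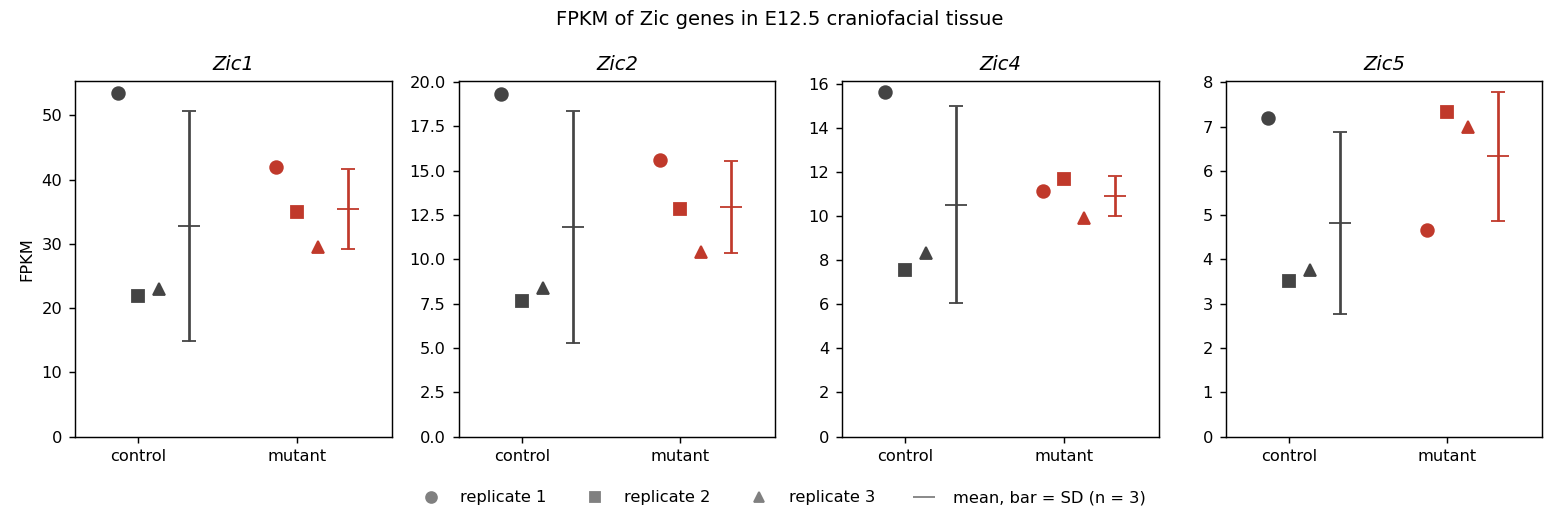
FPKM of the 4 *Zic* genes in each control (grey) and mutant (red) sample, with the symbol giving the replicate number and the bars the mean and SD of 3 samples. In every panel control 1 lies far above controls 2 and 3, and all 3 mutants lie above controls 2 and 3.

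*Zic2* followed *Zic1* closely. Its FPKM was 19.3, 7.66 and 8.39 in controls and 15.6, 12.8 and 10.4 in mutants. The order of the 6 samples was that of *Zic1*, with control 1 at the top and controls 2 and 3 at the bottom. The means were 11.8 ± 6.55 and 12.9 ± 2.60 (SD, n = 3), with a log2 fold change of 0.22 (SE 0.32), which was 0.61 without control 1 and -0.0041 without control 2. By number the log2 differences were -0.29, 0.67 and 0.28. The ratio of *Zic2* to *Zic1* lay between 0.351 and 0.372 in the 6 samples, a range of 1.06-fold, while *Zic1* itself ranged over 2.45-fold. The genes are on different chromosomes.

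*Zic4* was at 15.6, 7.57 and 8.34 FPKM in controls and at 11.1, 11.7 and 9.89 in mutants. The mutants were close together and again lay between control 1 and the other 2 controls. The means were 10.5 ± 4.45 and 10.9 ± 0.922 (SD, n = 3), with a log2 fold change of 0.11 (SE 0.24). It was 0.41 without control 1, -0.070 without control 2 and -0.0074 without control 3. By number the log2 differences were -0.46, 0.57 and 0.22. Relative to *Zic1*, with which it shares its locus, *Zic4* was at 0.293, 0.347 and 0.362 in controls and 0.265, 0.334 and 0.335 in mutants. This ratio was lowest in the first replicate of each group and overlapped between the groups.

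*Zic5* was the lowest of the 4 genes and the one that departed from the rest. Its FPKM was 7.19, 3.51 and 3.77 in controls and 4.66, 7.33 and 6.98 in mutants. Mutants 2 and 3 stood beside control 1, and mutant 2 lay above all 3 controls. Mutant 1 was the lowest mutant for *Zic5*, where it was the highest mutant for *Zic1* and *Zic2*. The means were 4.82 ± 2.06 and 6.32 ± 1.45 (SD, n = 3), with a log2 fold change of 0.37 (SE 0.26). Because mutant 1 was under 5 FPKM, *Zic5* did not pass the filter of more than 5 FPKM in all samples of a group, which the other 3 members passed, and its SE comes from the fit on genes with a mean over 1 FPKM. By number the log2 differences were -0.53, 0.89 and 0.74. Over replicates 2 and 3 the mutants had 1.97 times the control level, and this log2 difference of 0.81 exceeded those of *Zic1* (0.50), *Zic2* (0.48) and *Zic4* (0.39) in the same samples.

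**Figure D2:**
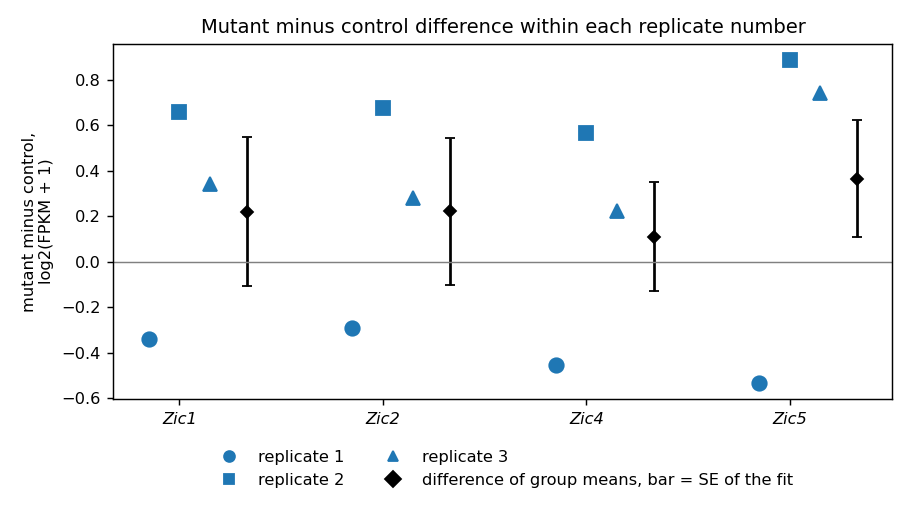
Mutant minus control difference of log2(FPKM + 1) for each *Zic* gene between samples with the same replicate number (blue symbols) and between the group means (black, with the SE of the fit). For all 4 genes the difference is negative in replicate 1 and positive in replicates 2 and 3, and the largest values, 0.89 and 0.74, belong to *Zic5*.

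The sign pattern by replicate number was thus shared by all 4 members: lower in mutant 1 than in control 1, and higher in mutants 2 and 3 than in the controls of the same number. Of the 10061 genes tested, which do not include *Zic5*, 21.1% had this pattern. Both mutants 2 and 3 lay above both controls 2 and 3 in all 4 members, as in 25% of genes tested, and the first replicates were the 2 highest samples for *Zic1* and *Zic2*, as in 18.4%. The full order, with control 1 above mutant 1 and above controls 2 and 3 and with mutants 2 and 3 above those controls, held for all 4 members and for 8.34%. No member had all 3 mutants above or all 3 below the controls, which 2.63% and 2.37% of genes tested had. The log2 fold change was above 0 for all 4 members and for 52.8% of genes tested.

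The members varied more between samples than most genes. The values of *Zic1* and *Zic2* spanned 1.25 and 1.23 on the log2 scale, those of *Zic4* 0.96 and those of *Zic5* 0.89, against a median of 0.33 over the genes tested. The SE of *Zic1* was larger than that of 98.8% of genes tested, and that of *Zic2* and *Zic4* larger than 98.7% and 96.0%. The size of the log2 fold change exceeded that of 94.4% of genes for *Zic1*, 94.5% for *Zic2* and 78.3% for *Zic4*. For each of these genes the spread within the groups ranked higher among the genes tested than the difference between the groups.

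Within each sample the order of levels was *Zic1*, *Zic2*, *Zic4* and *Zic5*. *Zic1* made up 52.0% to 57.2% of the summed FPKM of the 4 members, and was 2.69 to 2.85 times *Zic2*. *Zic2* was above *Zic4* in 6 of 6 samples, but by as little as 1.01-fold, so these neighbours in the order were close in controls 2 and 3. *Zic4* was above *Zic5* in 6 of 6 samples, by 1.42- to 2.39-fold, with the smallest gap in mutant 3. The summed FPKM was 95.6, 40.6 and 43.5 in controls and 73.3, 66.9 and 56.8 in mutants, so the controls enclosed the mutants for the sum as well.

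The ratio of *Zic5* to its neighbour *Zic2* was 0.372, 0.458 and 0.449 in controls and 0.298, 0.572 and 0.670 in mutants, a range of 2.25-fold. Mutants 2 and 3 had the highest ratios and mutant 1 the lowest, so the groups overlapped. Across the 6 samples, which share their libraries and the separation of the first replicates, Pearson's r on log2(FPKM + 1) was 0.999 between *Zic1* and *Zic2*, 0.966 between *Zic1* and *Zic4*, and 0.668 between *Zic1* and *Zic5*.

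**Figure D3:**
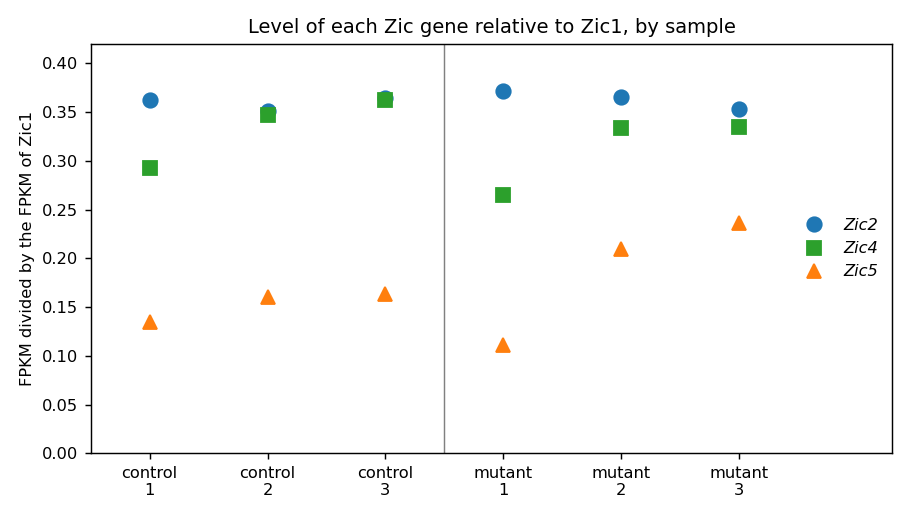
FPKM of *Zic2*, *Zic4* and *Zic5* divided by the FPKM of *Zic1* in each of the 6 samples. *Zic2* stays between 0.351 and 0.372, while *Zic5* runs from 0.111 in mutant 1 to 0.237 in mutant 3.

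Genes with a like pattern were sought among the 293 genes (2.91% of those tested) whose values spanned at least 1 on the log2 scale, by Pearson's r over the 6 samples. Among the 5 closest to *Zic1* were *Zic2* (0.999), *Btbd17* (0.976), *Hba-a1* (0.970), an alpha globin, and *Prr7* (0.970). *Zic2* had *Zic1*, *Btbd17* (0.980), *Prr7* (0.977) and *Pcsk1n* (0.977). *Zic4* had *Rmst* (0.993), a long noncoding RNA of neural tissue, the gene ENSMUSG00000097428 (0.976), *Gpm6a* (0.974), a neuronal membrane glycoprotein, and *Dmrta2* (0.973), a regulator of the dorsal telencephalon. *Zic5* had a different set. It consisted of *Igfbpl1* (0.947), *Dmrtb1* (0.942), *Ttr* (0.905), the transthyretin made by the choroid plexus, *Emx1* (0.903), a cortical factor, and *Lhx9* (0.901). An r over 0.9 was found with 36 genes for *Zic1*, 39 for *Zic2* and 29 for *Zic4*, and with 5 for *Zic5*. With 6 samples, 2 of which stand apart, a high r is reached by many genes.

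Neighbouring genes were examined within 500 kb of each start. Around *Zic1* and *Zic4*, the only other genes of the table are *Gm5620*, a pseudogene at 1.39 to 1.82 FPKM, and *Gm26101*, listed at 0 in every sample. Near *Zic2*, the noncoding gene *2610035F20Rik* starts 236 bp from the start of *Zic2*. Its FPKM was 3.31, 1.01 and 0.923 in controls and 1.43, 2.26 and 1.79 in mutants, so that it too was highest in control 1, lowest in controls 2 and 3, and higher in mutants 2 and 3 than in the controls of the same number. *Tm9sf2*, *Clybl* and *Pcca*, a subunit of a mitochondrial carboxylase, were the genes of the *Zic2* window that passed the filter. Their log2 fold changes were -0.077 (SE 0.12), 0.17 (SE 0.17) and 0.077 (SE 0.14), and none passed the test (adjusted p of limma 0.99999 for each).

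In the lists of the wider *Zic* pathway, as in the whole table (0% of genes tested), limma called no gene at an adjusted p of 0.05. Of 9 Gli and Glis relatives and partners, 7 passed the filter and 0 had an unadjusted p under 0.05, with a median log2 fold change of 0.022 against 0.0057 over all genes tested. *Mdfi*, an inhibitor that can bind *Zic* proteins and the highest gene of the list, was at 73.7, 83.1 and 77.3 FPKM in controls and 84.6, 77.7 and 85.2 in mutants. Of 10 genes reported as regulated by *Zic* factors, 5 passed, with a median of -0.11. Among them 1, *Pax3*, was lower in mutants at an unadjusted p under 0.05, beside 0.954% of genes tested. *Pax3* carries the Cre knock-in in mutants, so an effect of that allele on its level cannot be told apart from one of the deletion. *Snai2*, a neural crest repressor in that list, was at 23.8, 26.0 and 25.6 in controls and 24.0, 19.9 and 22.0 in mutants. Of 13 neural plate border and crest genes, 11 passed, and again *Pax3* alone had an unadjusted p under 0.05, beside 1.66% of genes tested. The midline and holoprosencephaly genes, the setting in which *Zic2* is known, had a median of -0.11 over 9 of 11 that passed, with 0 at an unadjusted p under 0.05.

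Of 14 roof plate genes of the dorsal neural tube, 5 passed the filter (median -0.036, 0 at an unadjusted p under 0.05). Of these 5, 5 were lower in mutant 1 than in control 1, as were 54.6% of genes tested, and 3 were higher in mutants 2 and 3 than in the controls of the same number, as were 34.7%. *Bmp4* and *Bmp7*, ligands of the roof plate and the highest genes of the list, were at 19.7, 20.8 and 22.8 and at 18.7, 17.1 and 16.5 FPKM in controls and at 19.6, 18.1 and 21.2 and at 17.0, 14.7 and 15.2 in mutants, so mutants 2 and 3 were below the controls of the same number. *Lmx1a*, a roof plate factor, did not pass, with 3.89, 1.03 and 0.954 FPKM in controls and 3.97, 3.28 and 3.80 in mutants, and *Olig3* had 5.58, 0.0842 and 0.0702 in controls and 1.14, 4.55 and 1.40 in mutants. Both genes, named after their values were seen, were lowest in controls 2 and 3, unlike *Bmp4* and *Bmp7*. The 3 passing genes that were higher in mutants 2 and 3 were *Rspo1*, *Rspo2* and *Rspo3*. *Rspo3* was at 17.3, 12.2 and 11.9 FPKM in controls and 10.6, 16.1 and 13.5 in mutants, lowest in mutant 1. *Rspo1* and *Rspo2*, likewise named after their values were seen, were lowest in controls 2 and 3. Of 12 hindbrain genes, which include targets of *Zic1* in the cerebellum, 2 passed, and *Atoh1*, a rhombic lip factor also named after its values were seen, was at or under 0.508 FPKM in every sample.

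The 16 forebrain progenitor genes all passed the filter, and all 16 were lower in mutant 1 than in control 1, as were 54.6% of genes tested. In mutants 2 and 3, 11 of the 16 were higher than in the controls of the same number, as were 34.7%. Their median log2 difference was -0.48 in replicate 1 and 0.50 over replicates 2 and 3, beside -0.34 and 0.50 for *Zic1*. *Lhx2*, a forebrain factor, was at 90.0, 28.1 and 46.4 FPKM in controls and 57.6, 69.3 and 69.9 in mutants. The genes of the list above it did not follow *Zic1* as far. *Fabp7* was at 253, 160 and 246 in controls and 250, 321 and 205 in mutants, so mutant 3 was below control 3. *Nes* was at 54.1, 62.7 and 76.9 in controls and 46.8, 81.4 and 78.3 in mutants, lowest in the first replicates. The summed progenitor FPKM was 766, 412 and 610 in controls and 621, 761 and 608 in mutants. The progenitor sum was lowest in control 2, as *Zic1* was, but in control 3 (610) it was close to mutants 1 and 3 (621 and 608), where *Zic1* was higher than in control 3. *Fabp7* and *Nes* were a large part of this sum, at 246 and 76.9 FPKM in control 3. The remaining genes of the list were not summed apart. The part of neural tissue in the *Zic* values was not tested.

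Neuronal markers had summed levels of 814 to 856 FPKM in controls and 931 to 1026 in mutants, and 4 of 11, *Tubb3*, *Elavl3*, *Dcx* and *Mapt*, had an unadjusted p under 0.05 and were higher in mutants, beside 0.706% of genes tested. None passed the adjusted threshold, and 2.63% of genes tested had all 3 mutants above the controls, as this sum had. The choroid plexus gene *Ttr*, the closest of these to *Zic5*, was at 56.1, 1.04 and 1.91 FPKM in controls and 27.4, 67.6 and 22.9 in mutants, and 7 of the 10 choroid plexus markers did not pass the filter. Skeletal muscle markers, 7 of 11 passing, were lowest in sum in control 1 and mutant 1 (186 and 181 FPKM) and highest in control 2 (492), the control in which *Zic1* was lowest. Surface and oral epithelium markers summed to 163, 284 and 242 FPKM in controls and 164, 224 and 172 in mutants, and 1 of the 10 that passed, the junction gene *Perp*, was lower in mutants at an unadjusted p under 0.05, beside 0.954% of genes tested. Meningeal markers, a tissue known to express *Zic* genes, ran from 308 to 374 in controls and from 325 to 400 in mutants, with the lowest sum in control 1. This sum rests largely on *Crabp2*, at 143, 218 and 228 in controls and 157, 203 and 260 in mutants. Of the 9 that passed, 4 were instead highest in control 1 and mutant 1, as were 18.4% of genes tested. *Nr2f2* was among them, at 49.3, 29.4 and 34.4 in controls and 45.8, 39.9 and 43.7 in mutants. The 7 erythroid markers in the table summed to 10201, 5067 and 5559 in controls and 10156, 6934 and 10431 in mutants. They were lowest in controls 2 and 3, as the *Zic* genes were. Unlike the *Zic* genes, they were nearly equal in control 1 and mutant 1 and highest in mutant 3. The choroid plexus sum was also lowest in controls 2 and 3, at 31.2 and 27.7 FPKM, against 85.7 in control 1 and 54.6, 99.97 and 47.1 in mutants. Retina and lens markers were lowest in mutant 1 (114) and control 1 (139), and 2 of 8 otic markers passed, with *Oc90*, an otic matrix gene, at 0.083, 5.04 and 0.063 in controls and 25.4, 10.2 and 8.38 in mutants. The part of any of these in the *Zic* values was not tested.

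**Figure D4:**
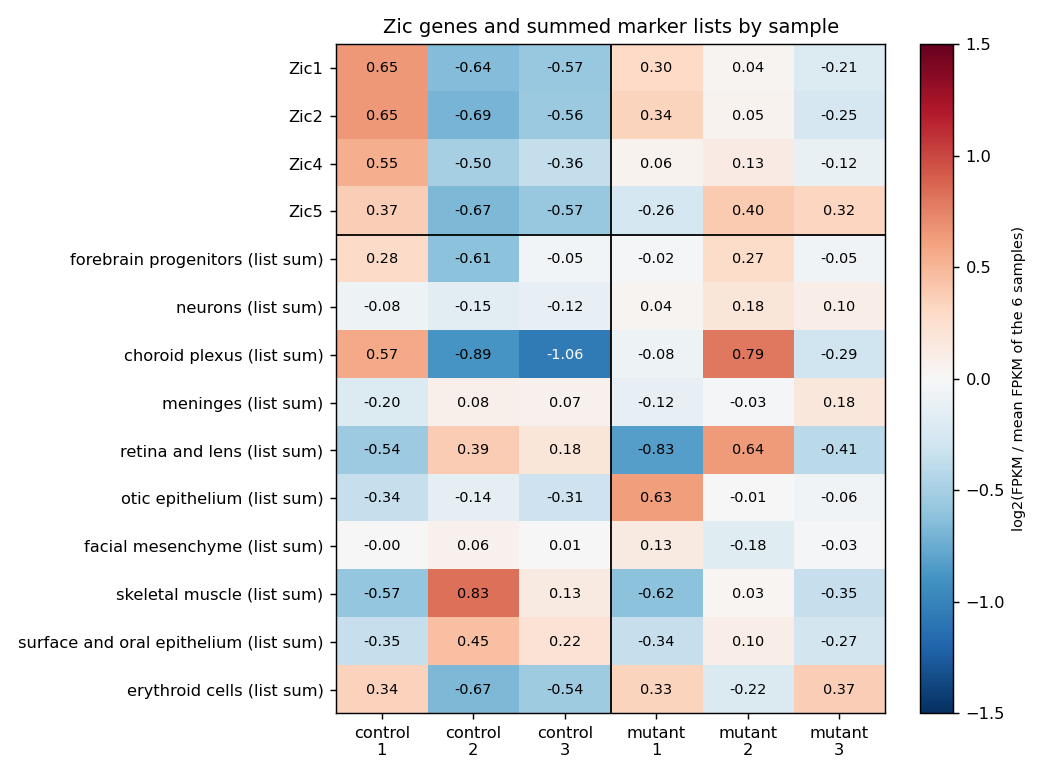
Level of each *Zic* gene and summed level of each marker list in the 6 samples, as log2 of the FPKM over its mean across samples (red high, blue low). The *Zic* rows are high in control 1 and low in controls 2 and 3, as are the choroid plexus and erythroid sums. The differences of the choroid plexus sum between samples rest mainly on *Ttr*. In controls 2 and 3 *Ttr* was only 1.04 and 1.91 FPKM of sums of 31.2 and 27.7. The muscle and epithelium sums are highest in control 2, where *Zic1* and *Zic2* are lowest.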

How the data were processed

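Polyadenylated RNA was made into stranded libraries, 3 per genotype, and read from both ends. The submitters' processing notes name FastQC 0.11.4, STAR, Cuffdiff and GRCm38. The authors deposited 1 FPKM value per gene and sample for 38553 genes, normalized by gene length and mapped fragments. The annotation and the step that made the gene table are not given in the sources used here. The table of all samples matched those of single samples (0 of 231318 values differed), and 95.0% of identifiers were found in the GENCODE annotation. The number of unused columns was 0. FPKM keeps no read counts. Among low values, between 16.94% and 31.18% of genes stood at 1 ratio in pairs among replicates 2 and 3, and at most 7.29% in pairs with a first replicate, so whole reads could not be recovered, and a count test was not used. The methods give a range of reads per sample, but the reads behind a single value are unknown.

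Genes with more than 5 FPKM in all controls or all mutants (10061) were compared on log2(FPKM + 1) by limma 3.58.1 (R 4.3.3), with its intensity trend switched on and Benjamini-Hochberg adjustment. The fit was tested on simulated data. With 3 samples against 3, an exact two-sided permutation test cannot go below 0.1, so none was run. The members and lists were chosen with earlier results of these data known. Genes named are the members, *Rbfox2*, *Pax3*, the 5 genes most correlated with each member, genes starting within 500 kb, and from each list those with an unadjusted p under 0.05 and the 3 highest. A gene that the rule would name is not reported here. Others are stated to be chosen after their values were seen. Markers of 10 tissues were set against the samples.

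Deviations from the group means, across genes, correlated at 0.64, 0.26 and 0.51 between samples numbered 1, 2 and 3, over the minimum of 0.1 set for every pair, so the numbers were taken as pairs. Control 3 with mutant 2 (0.40) and control 2 with mutant 3 (0.23) correlated as well, so the values set the first replicates apart and do not tell numbers 2 and 3 apart. With the first replicates apart, samples 2 and 3 tend to correlate across groups however they are numbered, so this check could not decide how they pair. The differences by number in replicates 2 and 3 and the SE of the replicate block rest on the numbers as given. Neither the labels nor the methods tie a number to a litter or day. Alternatives were a pseudocount of 0.1, 2 other filters, median ratio scaling, no trend, a replicate block, replicates 2 and 3 only, and each sample left out.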

Additional observations from a re-analysis of the deposited data

How the results depend on the processing

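Without control 2 the log2 fold change was -0.0011 (SE 0.34) for *Zic1*, -0.0041 (SE 0.33) for *Zic2* and -0.070 (SE 0.24) for *Zic4*. Without control 3 that of *Zic4* was -0.0074 (SE 0.27). Each of these lay within its SE of 0. So did those over all 6 samples, 0.22 (SE 0.33) for *Zic1*, 0.22 (SE 0.32) for *Zic2* and 0.11 (SE 0.24) for *Zic4*. Leaving out each sample in turn gave log2 fold changes from -0.0011 to 0.63 for *Zic1*, from -0.0041 to 0.61 for *Zic2*, from -0.070 to 0.41 for *Zic4* and from 0.21 to 0.64 for *Zic5*. The highest value came without control 1 and the lowest without control 2 in each case. On replicates 2 and 3 only, *Zic5* was at 0.81. The pseudocount of 0.1, the filter on a mean over 1 FPKM and the scaling moved none of the 4 by more than the spread between replicates. With the replicate block the differences of the members were the same by construction, and the SE was 0.18 for *Zic1* and *Zic2*, 0.19 for *Zic4* and 0.28 for *Zic5*. Genes with an unadjusted p under 0.05 numbered 604 with the replicate block, 663 with no filter, 286 with a filter on a mean over 1 FPKM, 1103 on replicates 2 and 3 only and 78 to 649 with a sample left out, against 167. The count was lowest without control 2 and highest without control 1, with 413 without mutant 1 and 108 without mutant 2. At an adjusted p of 0.05 there were 4 genes on replicates 2 and 3 only and 0 to 1 with a sample left out, the 1 without mutant 3. Genes with groups that did not overlap numbered 503, and 794 with the filter on the mean. The causes were not tested. FPKM does not show how many reads a value rests on, so the counting error of *Zic5* and other low genes could not be given.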
